A study of Mus musculus with 19 samples.

Results

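The type I interferon-stimulated genes of mouse liver were described here as a set of 39 classical genes, chosen by gene symbol with the results of these arrays already known. Of the 39, 37 were measured among 19505 genes named on the array, and *Ifi44* and *Ifi47* were not analysed here. The list came with no expression threshold, so no gene lay just inside or just outside one. Gene expression was measured on one-colour Clariom S arrays in liver of 10 *Mmut*-ko/ki (mutant) and 9 *Mmut*-ki/wt (control) mice, one array per mouse. The mutants carried a knock-out allele and a knock-in allele (MMUT-p.Met700Lys) of methylmalonyl-CoA mutase, the mitochondrial enzyme that is deficient in methylmalonic aciduria. The controls carried a wild-type allele and the same knock-in allele, so the knock-in allele was common to both groups. All were male C57BL/6N mice aged 20 weeks, fed freely on a high-protein diet, and carried their alleles in the whole body, not in hepatocytes alone. No treatment was compared. Mice of the paper's cohorts underwent fasts, blood sampling and glucose or insulin injections during the study, and which of these the array mice had is not given. Values are log2 signals, each comparison is mutant minus control, and signals are not compared between genes because each probe set has its own response.

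Type I interferons bind the receptor pair IFNAR1 and IFNAR2, whose kinases JAK1 and TYK2 pass the signal on by phosphorylation. STAT2 and IRF9 belong to the factor ISGF3, which binds the interferon-stimulated response element (ISRE) in the promoters of many antiviral genes. In liver, hepatocytes, Kupffer cells and endothelial cells all carry the receptor, and the induced genes include RNA-binding effectors, ubiquitin-like modifiers and feedback inhibitors of the pathway itself.

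The ISRE could be read in the promoters of part of the set. RefSeq promoter windows (GRCm38.p6, 250 bases before to 50 bases after each start) existed for 28 of the 37 measured genes, and the core letters GAAA, NN and GAAA in a row (N stands for any base) were searched on both strands. They occurred in 11 of the 28 genes (39.3%) and in 36 of 77 other interferon-stimulated genes with a window (46.8%), against 1079 of all 27025 genes with a window (3.99%) and 3.44% of all 32851 windows. The interferon-gamma activated site, searched as TTCNNNGAA, occurred in 6 of the 28 genes (21.4%) and in 9 of the 77 others (11.7%), against 9.55% of all genes with a window and 8.30% of all windows, and 1 ISRE match in these promoters overlapped such a site. A match is a run of letters, not a measured binding site, and a window without one says only that the letters are not there. The 160 bases before the start are shown for 7 genes, 5′ to 3′ in the direction of transcription, because these promoters carry the ISRE close to the start and belong to members at both ends of the range of change; capitals mark the ISRE core matches on either strand.
Isg15: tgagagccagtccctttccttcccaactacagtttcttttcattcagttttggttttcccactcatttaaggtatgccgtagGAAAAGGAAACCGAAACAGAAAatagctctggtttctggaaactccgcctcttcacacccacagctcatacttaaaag
Ifit1: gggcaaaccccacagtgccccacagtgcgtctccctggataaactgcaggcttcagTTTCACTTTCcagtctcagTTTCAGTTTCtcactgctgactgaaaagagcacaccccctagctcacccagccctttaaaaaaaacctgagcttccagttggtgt
Ifit3: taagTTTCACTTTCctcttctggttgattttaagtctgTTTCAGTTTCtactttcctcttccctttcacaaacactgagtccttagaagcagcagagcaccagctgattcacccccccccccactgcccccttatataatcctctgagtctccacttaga
Bst2: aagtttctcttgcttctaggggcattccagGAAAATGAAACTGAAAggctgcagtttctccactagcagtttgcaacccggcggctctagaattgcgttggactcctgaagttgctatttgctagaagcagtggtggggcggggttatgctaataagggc
Oas1a: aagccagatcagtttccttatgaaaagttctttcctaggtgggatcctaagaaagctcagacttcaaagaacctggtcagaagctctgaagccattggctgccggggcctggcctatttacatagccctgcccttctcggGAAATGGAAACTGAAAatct
Oas1g: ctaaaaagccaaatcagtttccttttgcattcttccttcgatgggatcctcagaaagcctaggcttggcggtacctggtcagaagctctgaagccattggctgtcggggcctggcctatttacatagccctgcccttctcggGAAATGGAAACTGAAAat
Oas3: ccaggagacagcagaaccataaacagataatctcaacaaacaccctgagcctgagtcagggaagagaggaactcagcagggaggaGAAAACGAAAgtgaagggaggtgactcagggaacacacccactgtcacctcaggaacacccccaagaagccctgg
The *Isg15* window (chr4:156200819-156200978, minus strand) held 3 overlapping matches at positions -78 to -57 from the start. *Ifit1* (chr19:34640729-34640888, plus strand) and *Ifit3* (chr19:34583369-34583528, plus strand), which lie on the same chromosome, carried the same pair of capital runs in the same order. *Bst2* (chr8:71537473-71537632, minus strand) had 2 overlapping matches at -130 to -115. *Oas1a* (chr5:120907526-120907685, minus strand) and *Oas1g* (chr5:120887614-120887773, minus strand) shared one capital run almost at the start, at -20 to -5 and at -18 to -3. *Oas3* (chr5:120777660-120777819, minus strand) held 1 match at -75 to -66.

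By median signal and by correlation no array stood apart before the genes were compared. Array medians lay between 5.19 and 5.25 in mutants and between 5.14 and 5.25 in controls, and pairwise correlations over probe sets were 0.975 to 0.989. Between 69.8% and 77.1% of probe sets were detected (detection p under 0.05) on mutant arrays (median 71.1%) and between 68.0% and 72.7% on control arrays (median 69.1%). Mutant replicate 1 had the 77.1%, and the next highest mutant, replicate 8, had 74.1%. *Mmut* itself, which checks the genotype (where its probes lie relative to the knock-out is not given), was lower in all 10 mutants than in any control, with 11.18 to 11.90 in mutants and 12.80 to 13.53 in controls (log2 change -1.66, SE 0.12, limma adjusted p = 5.28e-10). Of 12 hepatocyte markers all were detected on every array, and 1, the asialoglycoprotein receptor subunit *Asgr1*, passed the test, lower in mutants (-0.34, SE 0.11, adjusted p = 0.0432). The *Asgr1* call was lost when any 1 of 14 of the 19 mice was left out (adjusted p 0.0511 to 0.0881), with quantile normalization (0.0718) and with the replicate block (0.137). Several of the 12 markers had a mean of 19.91 in both groups with almost no spread, as at a saturated signal. A change in these markers may not have been measurable, so the list does not show that hepatocyte content was equal.

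All 37 measured genes had a higher mean in mutants than in controls, although *Isg20* turned to -0.00101 when array medians were equalised. The log2 change ran from 0.03 for *Isg20* to 4.10 for *Usp18*, with a median of 1.23, beside a median of 0.00 over all genes tested. The test (limma, Benjamini-Hochberg adjusted p under 0.05 over all genes) called 35 of the 37 higher and 0 lower, beside 4.73% of all genes called higher and 5.33% called lower. For 20 of the 37, every mutant lay above every control, beside 0.933% of all genes. Because the set was chosen with this comparison in view, these counts describe the genes and were not read as a result about them, and no p is given for a single member. In whole liver, more cells of a type and more RNA per cell cannot be told apart.

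**Figure D1:**
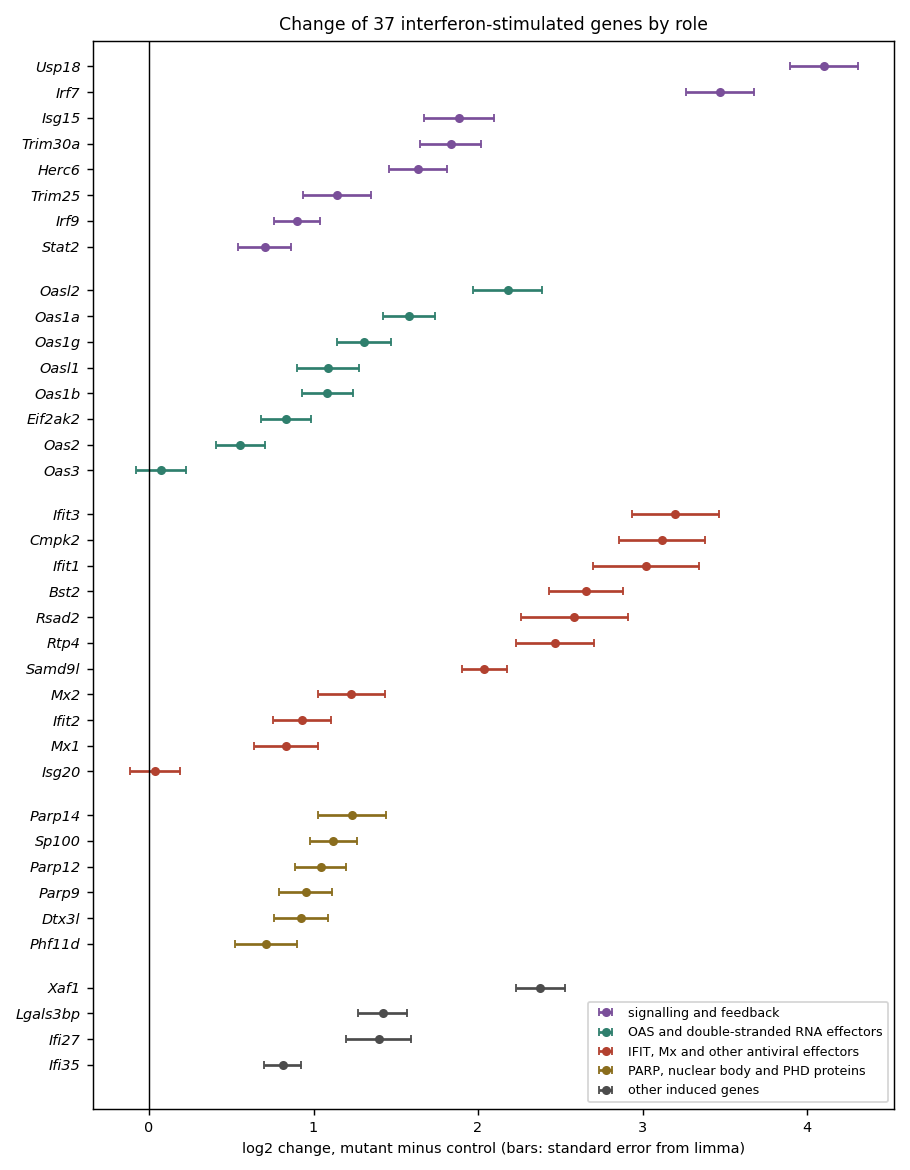
Log2 change of each of the 37 measured genes, mutant (n = 10) minus control (n = 9), with bars for the standard error from limma, grouped by role and ordered by change within each role. All points lie above 0, *Usp18* reaches 4.10, and *Isg20* (0.03) and *Oas3* (0.07) lie within 1 standard error of 0.

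The genes of signalling and feedback included the transcription factors of the pathway and its best known inhibitor. All 8 were called higher, with a median log2 change of 1.73. Beside this count and those of the role groups below stand the shares over all genes. These are 4.73% called higher and 0.933% with every mutant above every control. As for the whole set, the role counts describe genes chosen with this comparison in view and are not results about the roles. *Usp18* encodes the protease that removes ISG15 from proteins and also binds IFNAR2 to restrain signalling. Its signal had a lowest, median and highest value of 11.16, 11.81 and 12.73 in mutants, against 7.17, 7.63 and 8.86 in controls. The groups were far apart, with a 17.2-fold difference (log2 change 4.10, SE 0.21), although control replicate 8 stood above the other controls. *Irf7*, the factor that amplifies interferon-alpha transcription, had 9.73, 10.47 and 11.16 in mutants and 5.95, 7.02 and 7.65 in controls, a change of 3.47 (SE 0.21) with no overlap.

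*Irf9* and *Stat2*, which encode subunits of ISGF3, changed less than *Usp18* and *Irf7*. *Irf9*, the DNA-binding subunit, had 7.58, 8.26 and 8.55 in mutants and 6.97, 7.15 and 7.73 in controls, with a change of 0.90 (SE 0.14). *Stat2* had 10.15, 11.04 and 11.48 in mutants and 9.74, 10.31 and 10.72 in controls, with a change of 0.70 (SE 0.16). For these 2 genes 9 and 8 of the 10 mutants exceeded every control, so the groups overlapped slightly.

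The ISG15 system was represented by its modifier and by ligases. *Isg15*, the ubiquitin-like protein, had 4.26, 5.43 and 6.53 in mutants and 2.91, 3.60 and 4.21 in controls (change 1.89, SE 0.21), and the groups came close without overlapping. *Herc6*, the main ISG15 ligase of mice, changed by 1.63 (SE 0.18) and also showed no overlap. *Trim25*, a ubiquitin ligase that acts on the RNA sensor RIG-I, changed by 1.14 (SE 0.21) with 7 of 10 mutants above every control. *Trim30a*, a member of a mouse cluster of closely related TRIM genes whose probes may share signal, changed by 1.83 (SE 0.19).

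Effectors that recognise double-stranded RNA differed widely among themselves. The oligoadenylate synthetases make the short adenylate chains that switch on RNase L, and together with the related *Oasl* genes and *Eif2ak2* they formed a group of 8, of which 7 were called higher, with a median of 1.09. *Oas1a* had 5.27, 5.84 and 6.43 in mutants and 3.69, 4.29 and 4.96 in controls, with every mutant above every control (1.58, SE 0.16). *Oasl2* gave the largest change of the group (2.18, SE 0.21), with 7.34, 8.02 and 9.09 in mutants and 5.26, 5.79 and 6.45 in controls. *Oas1a* and *Oas1g* (1.31, SE 0.17) are close copies, so part of each signal may come from the other. *Oas1b*, which carries a premature stop codon in C57BL/6 mice, nevertheless had a change in transcript signal of 1.08 (SE 0.16).

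At the lower end of the same family stood *Oas2* and *Oas3*. *Oas2* had 5.01, 5.44 and 6.14 in mutants and 4.51, 5.06 and 5.21 in controls (0.55, SE 0.15). *Oas3* had 2.71, 3.43 and 3.90 in mutants and 2.57, 3.35 and 3.91 in controls, a change of 0.07 (SE 0.15) that did not pass the test. Its probe set was detected on 1 of the 19 arrays, so a change in this gene was not measurable here, although its promoter held an ISRE core match. *Oasl1*, which in mice represses translation of *Irf7*, was detected in all 10 mutants and in 3 of 9 controls, with a change of 1.09 (SE 0.19). *Eif2ak2*, the kinase PKR, which stops translation on double-stranded RNA, changed by 0.83 (SE 0.15) with 8 of 10 mutants above every control.

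The IFIT, Mx and other antiviral effectors had the highest median of the 5 role groups, 2.47 over 11 genes, of which 10 were called higher. The IFIT proteins bind viral RNA ends. *Ifit3* had 11.06, 12.09 and 13.17 in mutants and 8.39, 8.85 and 9.79 in controls, a 9.19-fold difference (log2 change 3.20, SE 0.26). *Ifit1* had 7.92, 9.25 and 10.80 in mutants and 5.49, 6.25 and 7.14 in controls (3.02, SE 0.32). Neither gene overlapped between groups, and both spread over more than 2 log2 units among the mutants. *Ifit2* changed less (0.93, SE 0.17), with 8 of 10 mutants above every control.

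*Rsad2* and *Cmpk2*, neighbouring genes for the antiviral enzyme viperin and for a mitochondrial nucleotide kinase, were both far above control. *Rsad2* had 8.54, 9.83 and 11.48 in mutants and 6.79, 7.26 and 8.01 in controls (2.58, SE 0.33). *Cmpk2* had 8.26, 10.19 and 10.79 in mutants and 6.25, 6.83 and 6.96 in controls (3.12, SE 0.26). The SD of *Rsad2* was 1.10 in mutants and 0.34 in controls, and that of *Cmpk2* was 0.88 in mutants and 0.24 in controls. *Bst2*, which encodes tetherin, the protein that holds budding virus at the cell surface, had 12.31, 13.66 and 14.30 in mutants and 10.35, 10.70 and 11.80 in controls (2.66, SE 0.23).

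Among the remaining effectors, *Rtp4*, an interferon-induced chaperone, changed by 2.47 (SE 0.24) and *Samd9l*, a restriction factor, by 2.04 (SE 0.14), both with no overlap. The Mx GTPases changed less. *Mx2* had 8.40, 9.52 and 10.12 in mutants and 7.63, 8.09 and 8.89 in controls (1.23, SE 0.20). *Mx1*, which is a deletion allele in C57BL/6 mice, had 4.90, 5.96 and 6.80 in mutants and 4.71, 5.08 and 5.39 in controls (0.83, SE 0.19), with 7 of 10 mutants above every control. *Isg20*, an exonuclease, was the exception in this group. It had 6.38, 6.65 and 6.96 in mutants and 6.00, 6.56 and 7.26 in controls, a change of 0.03 (SE 0.15) that did not pass the test, with all mutants inside the range of the controls.

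**Figure D2:**
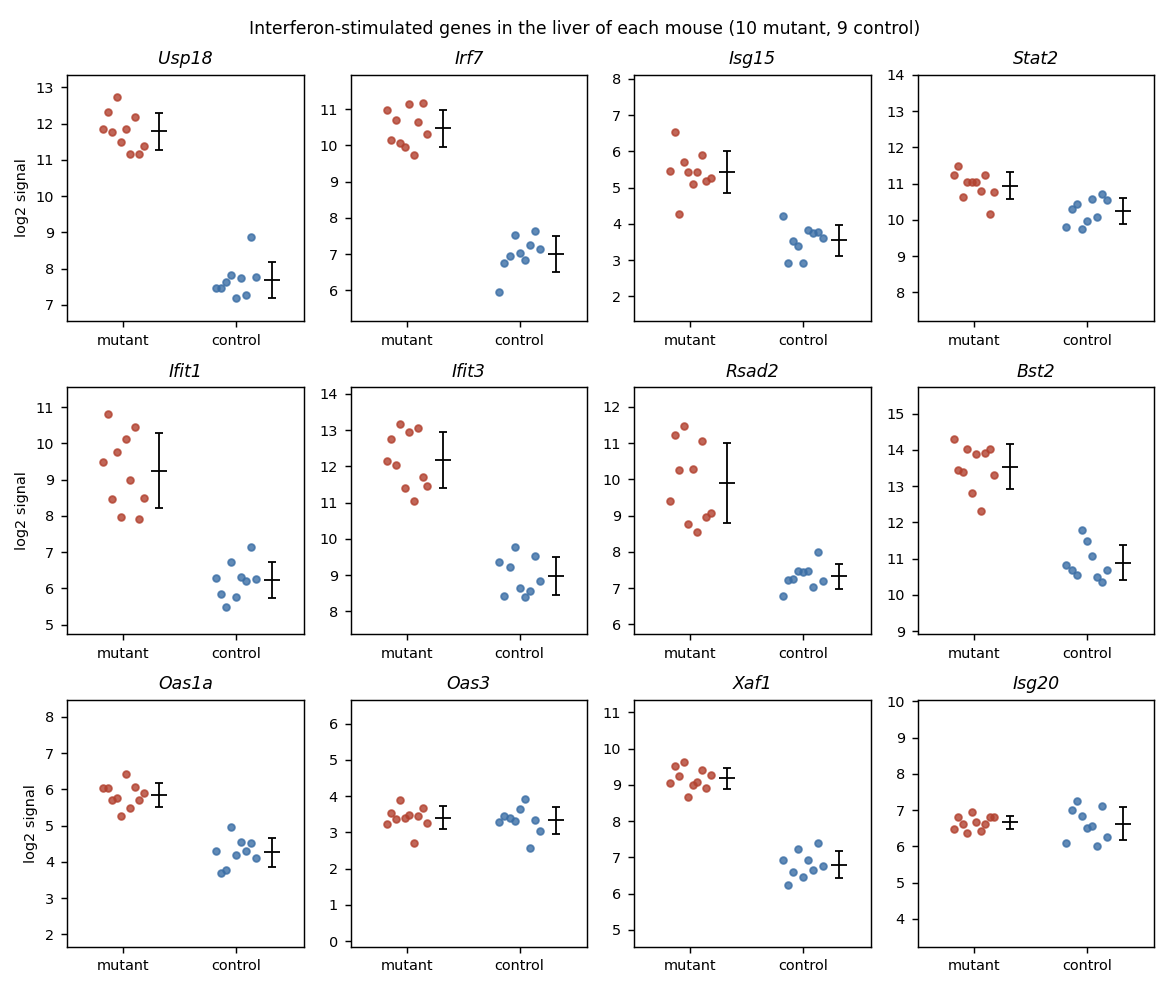
Log2 signal of 12 of the genes in each mouse, mutants (red, n = 10) left of controls (blue, n = 9), with the mean and SD of each group in black; every panel spans the same number of log2 units. The groups are apart for *Usp18*, *Irf7* and *Rsad2*, overlap slightly for *Stat2*, and coincide for *Oas3* and *Isg20*.

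The PARP, nuclear body and PHD proteins had the lowest median of the role groups, 1.00 over 6 genes, all called higher. *Parp14*, an ADP-ribosyltransferase, changed by 1.23 (SE 0.21) and *Parp12*, which acts on RNA viruses, by 1.04 (SE 0.15). *Parp9* and its ubiquitin ligase partner *Dtx3l* had nearly the same change, 0.95 (SE 0.16) and 0.92 (SE 0.16). *Sp100*, a nuclear body component, changed by 1.12 (SE 0.14), and with *Parp12* was one of 2 genes of this group with every mutant above every control. *Phf11d* overlapped most among the genes called, with 5.72, 6.88 and 7.48 in mutants and 5.47, 6.09 and 6.98 in controls (0.71, SE 0.19) and only 2 of 10 mutants above every control.

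The 4 other induced genes were all called higher, with a median of 1.41. *Xaf1*, a pro-apoptotic antagonist of XIAP, had 8.66, 9.15 and 9.62 in mutants and 6.24, 6.75 and 7.40 in controls (2.38, SE 0.15), with a small spread in both groups. *Lgals3bp*, a secreted glycoprotein, changed by 1.42 (SE 0.15), and *Ifi27*, a mitochondrial membrane protein, by 1.40 (SE 0.20). *Ifi35* changed by 0.81 (SE 0.11), and its 2 groups did not overlap despite this small change.

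The size of the change differed between mutants. Each mouse was given the median, over the 37 genes, of its difference from the control mean. This was 0.85 to 1.70 in mutants (median 1.47) and -0.20 to 0.44 in controls (median -0.02). The lowest mutants were replicate 5 (0.85), replicate 9 (0.94), replicate 10 (1.08) and replicate 7 (1.13), and the other 6 mutants lay between 1.45 and 1.70. Mutant replicates 5 and 9 were among the lowest 3 mutants for 26 and 23 of the 37 genes. Among controls, replicate 8 was the highest at 0.44 and had the highest control value for 20 of the 37 genes. The SD was larger in mutants than in controls for 28 of the 37 genes (75.7%), beside 49.3% of all genes, and the median SD was 0.45 in mutants and 0.38 in controls.

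**Figure D3:**
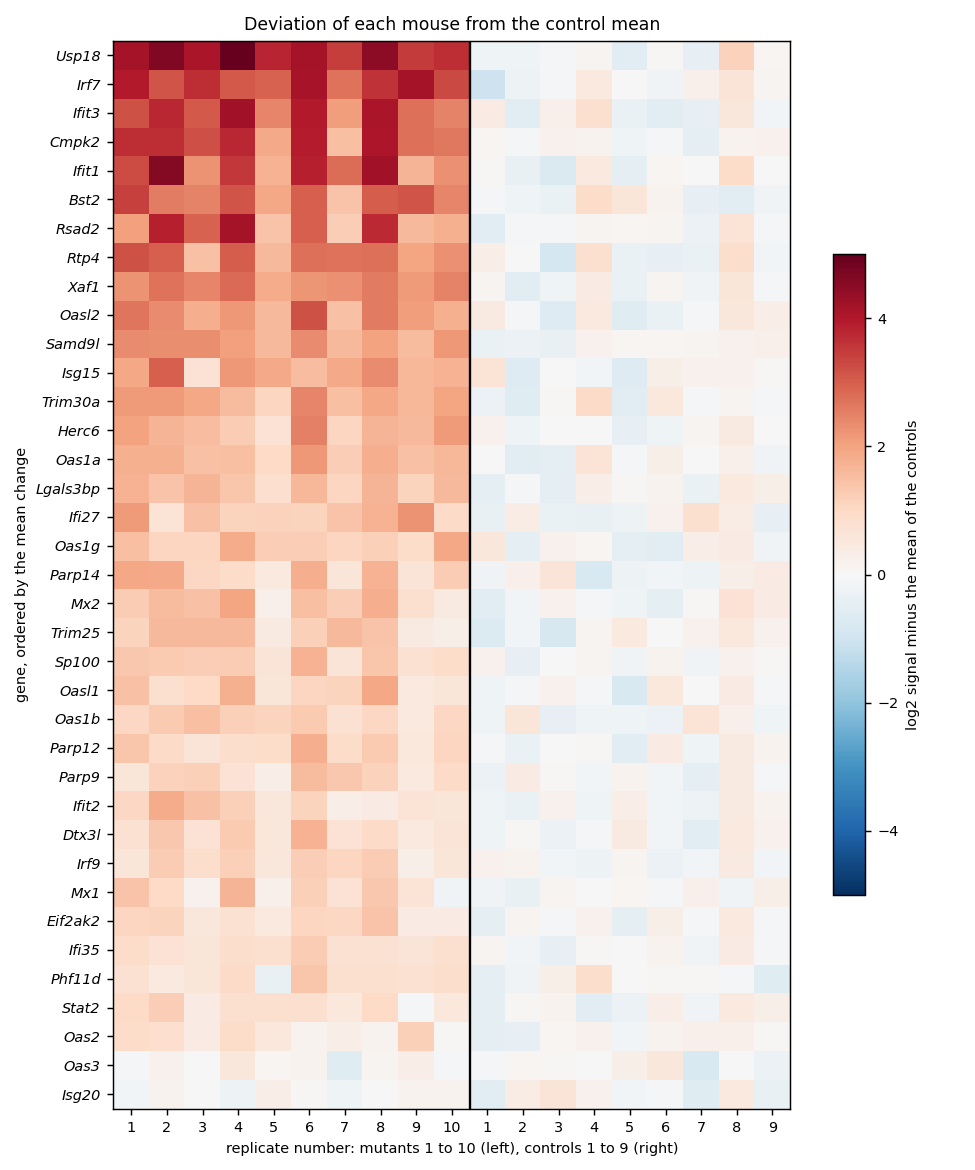
Difference of each mouse from the control mean (log2) for the 37 measured genes, ordered by mean change, with mutants 1 to 10 left of controls 1 to 9. Mutant replicates 5, 7, 9 and 10 have the paler columns among the mutants, with median differences of 0.85 to 1.13, and control replicate 8 has the reddest column among the controls, at 0.44.

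The genes upstream of the set were examined next, from the ligands to the sensors that induce them. All lists from here on were chosen with earlier results of these data known, so their counts are descriptions. They stand beside 4.73% of all genes called higher and 5.33% called lower. Of 19 measured interferon ligand genes, 0 passed the limma test in either direction, 0 passed the methods' t-test or the Wilcoxon test after adjustment, and 1, *Ifne*, had an unadjusted limma p under 0.05. The median log2 change was -0.06 (range -0.38 to 0.30), 4 of the 19 were detected on no array, and 4 on all. *Ifnb1* had 3.88, 4.32 and 4.83 in mutants and 3.89, 4.09 and 4.77 in controls (0.14, SE 0.14, adjusted p = 0.625). *Ifng* was detected in 4 of 10 mutants and 0 of 9 controls (0.30, SE 0.21, adjusted p = 0.448). *Ifnb1*, *Ifna5*, *Ifna7* and *Ifnl3* were the 4 detected on all arrays, and a p that misses the threshold does not show that any ligand was equal in the groups.

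Of 10 receptor and transducer genes, 2 rose and 1 fell. *Ifnar2* had 13.32, 13.60 and 14.20 in mutants and 12.71, 12.88 and 13.25 in controls, and rose by 0.70 (SE 0.11, limma adjusted p = 1.40e-04) with every mutant above every control. *Ifnar1*, its partner chain, had 8.40, 8.61 and 8.95 in mutants and 8.67, 9.06 and 9.67 in controls, and was lower by the test (-0.41, SE 0.12, adjusted p = 0.0306). The 2 chains of the receptor had changes of opposite sign, although the *Ifnar1* call was lost when any 1 of 5 mice was left out (adjusted p 0.0521 to 0.0664 without mutant replicate 3 or 6 or control replicate 3, 4 or 9). *Ifngr1*, a chain of the interferon-gamma receptor, rose by 0.57 (SE 0.12, adjusted p = 0.00245). The kinase genes *Jak1* (-0.00, SE 0.15) and *Tyk2* (0.17, SE 0.13) did not pass the test.

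A list of 8 further genes held interferon regulatory factors and the IRF2-binding proteins *Irf2bp1* and *Irf2bp2*. Of these 8 genes 1 rose and 1 fell. *Irf1*, which responds to both interferon types, rose by 0.87 (SE 0.18, limma adjusted p = 0.00238). *Irf3*, the factor that sensors activate to switch on *Ifnb1*, was lower, with 7.69, 8.20 and 8.77 in mutants and 8.33, 8.76 and 9.19 in controls (-0.51, SE 0.13, adjusted p = 0.0140). Of the 11 genes that restrain interferon signalling, the single one called was *Usp18*, which is itself a member of the set described here. *Socs1*, a suppressor of JAK kinases, was detected on no array.

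Of 21 listed genes of nucleic acid sensing and its regulation 10 rose and 0 fell, beside 4.73% of all genes called higher, with a median of 0.31. The list is not limited to sensors and adaptors. Among the 10, *Adar*, *Samhd1* and *Rnaseh2a* encode enzymes that act on nucleic acids or nucleotides. *Ddx58*, which encodes the RNA sensor RIG-I, had 9.75, 10.09 and 10.73 in mutants and 7.80, 8.46 and 9.19 in controls, and rose by 1.67 (SE 0.18, limma adjusted p = 5.64e-07). *Adar*, which edits double-stranded RNA, rose by 1.18 (SE 0.12, adjusted p = 1.32e-07), and the nucleic acid sensor *Zbp1* rose by 1.52 (SE 0.19, adjusted p = 3.06e-06). *Dhx58*, a regulator of RIG-I, rose by 1.17 (SE 0.15, adjusted p = 5.39e-06). Of these 10 genes 6 are also interferon-stimulated genes of the wider list below. The adaptor *Mavs* (-0.17, SE 0.11) and the DNA-pathway adaptor *Sting1* (0.31, SE 0.22) did not pass the test, with adjusted p of 0.410 and 0.461.

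A wider list of other interferon-stimulated genes, also chosen with earlier results of these data known, is described next. Of 94 measured genes 55 rose and 0 fell, beside 4.73% of all genes called higher, with a median of 0.65. For 21 of the 94 every mutant lay above every control, beside 0.933% of all genes. Mutant replicate 6 had the highest median shift over this list, 1.22, against 0.43 to 0.81 in the other 9 mutants and -0.16 to 0.25 in controls, and without this mouse 52 genes were called higher. *Apol9a*, an apolipoprotein L family gene, had 13.59, 13.90 and 14.37 in mutants and 10.37, 10.84 and 12.21 in controls, and rose by 2.99 (SE 0.18, limma adjusted p = 2.53e-11). Its close copy *Apol9b* rose by 2.66 (SE 0.19, adjusted p = 2.91e-10), and *Ifit3b*, a close copy of *Ifit3*, rose by 3.21 (SE 0.28, adjusted p = 1.44e-08). Signal may be shared within each of these pairs. *Ifi213*, of the DNA-binding p200 family, rose by 1.74 (SE 0.17, adjusted p = 8.86e-08).

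The GTPases and antigen presentation genes that answer mainly to interferon-gamma also moved. Of 34 measured genes 21 rose and 0 fell, beside 4.73% of all genes called higher, with a median of 0.75. On the wider list are also 11 of the 34. *Irgm2*, an immunity-related GTPase, had 11.11, 12.23 and 14.02 in mutants and 9.27, 9.72 and 10.61 in controls, and rose by 2.41 (SE 0.26, limma adjusted p = 3.41e-07). *Gbp3*, a guanylate-binding protein, rose by 2.18 (SE 0.26, adjusted p = 1.38e-06), *Igtp*, another immunity-related GTPase, by 2.86 (SE 0.39, adjusted p = 1.26e-05) and the large GTPase *Gvin1* by 2.42 (SE 0.33, adjusted p = 1.28e-05). Mutant replicate 6 was well above the other mutants here, with a median shift of 2.23 over this list, against 0.31 to 0.92 in the other 9 mutants and -0.25 to 0.51 in controls. Its median shift over the 37 type I genes was 1.66, within the range of the other mutants, although it had the highest mutant value for 11 of the 37, more than any other mutant. Without this mouse 22 of the 34 genes were called higher. Counting each gene once, the sensor, wider and interferon-gamma lists held 132 measured genes, of which 72 rose and 0 fell. As these lists were chosen with earlier results of these data known, this count is a description too.

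**Figure D4:**
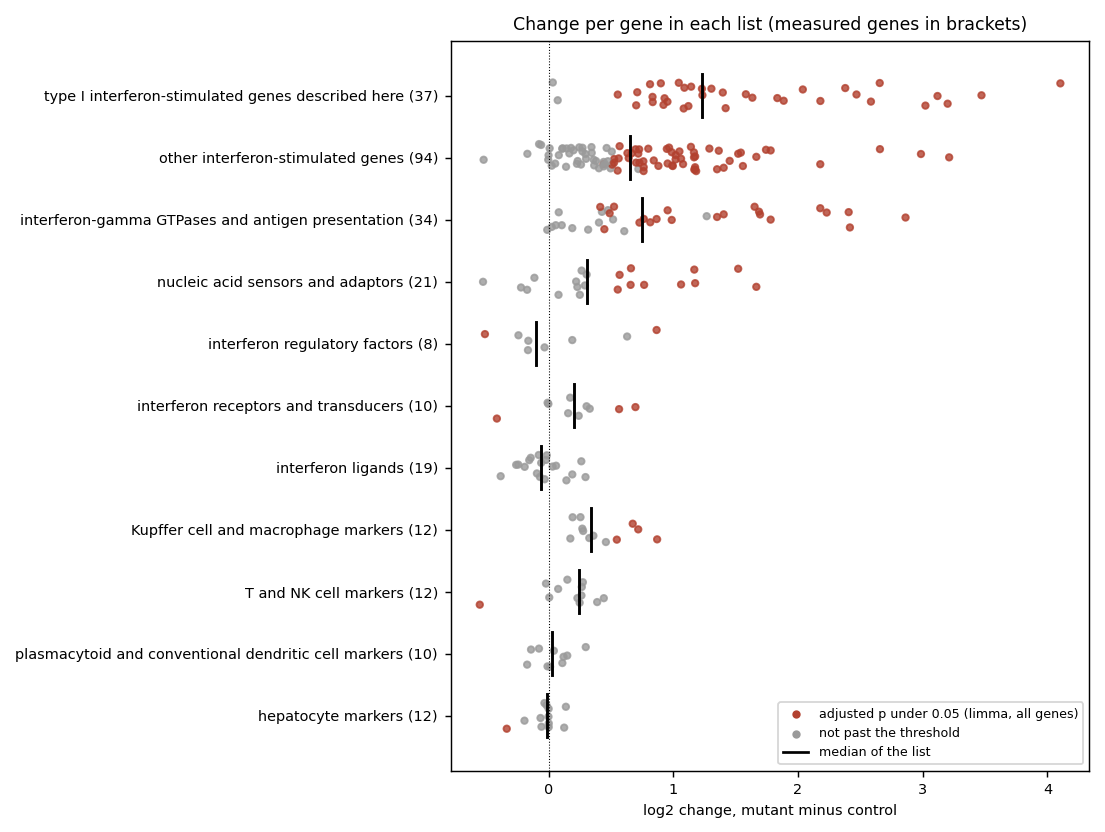
Log2 change of each measured gene, mutant minus control, in the set described here and in 10 other lists, with genes past the limma threshold in red, the others in grey and the median of each list as a black line. The medians are 1.23 for the 37 genes, 0.65 for other interferon-stimulated genes, -0.06 for the ligands and -0.01 for hepatocyte markers. Several hepatocyte markers had a mean signal of 19.91 with almost no spread, where a change may not be measurable.

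Markers of other liver cells were compared between the same groups. Of 12 Kupffer cell and macrophage markers 4 rose and 0 fell, all 12 were detected on every array, and the median change was 0.34. *Vsig4*, a complement receptor of resident macrophages, rose by 0.87 (SE 0.20, limma adjusted p = 0.00435). *Clec4f* rose by 0.72 (SE 0.20, adjusted p = 0.0183), *Cd5l* by 0.67 (SE 0.20, adjusted p = 0.0346) and *Adgre1* by 0.55 (SE 0.16, adjusted p = 0.0262). Fewer of the 12 passed by the other tests, 2 by the methods' t-test and 1 by the Wilcoxon test, each after adjustment over all genes. The summed signal of the 12 markers, on a linear scale, was 6581 to 22324 in mutants (median 9601) and 5657 to 9622 in controls (median 7229), with mutant replicate 6 shifted most (1.47 in median log2, against -0.06 to 0.77 in the other mutants). Mutant replicate 7 had the lowest marker shift, -0.06, beside a shift of 1.13 over the 37 genes. Mutant replicate 4, with a marker shift of -0.01, was among the 6 mutants between 1.45 and 1.70 over the 37 genes. At the upper end, mutant replicates 6 and 3 had marker shifts of 1.47 and 0.77, beside 1.66 and 1.45 over the 37 genes. The remaining mutants lay between these in marker shift. Whether the marker shift and the shift over the 37 genes go together was not tested.

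The other marker lists had at most 1 call each. Of 10 dendritic cell markers, 0 passed the limma test, 0 had an unadjusted p under 0.05, 0 passed the methods' t-test or the Wilcoxon test after adjustment, and 1 was detected on no array. Their summed signal was 213 to 272 in mutants and 211 to 288 in controls. *Siglech*, a marker of plasmacytoid dendritic cells, which are strong producers of type I interferon, had 5.02, 5.58 and 6.09 in mutants and 5.39, 5.81 and 6.14 in controls (-0.17, SE 0.13, adjusted p = 0.491). Of 9 monocyte and neutrophil markers 1, *Plac8*, rose (0.84, SE 0.17, adjusted p = 0.00200). Of 12 T and NK cell markers 1, *Cd4*, was lower (-0.55, SE 0.18, adjusted p = 0.0466), a call that was lost with the methods' t-test (0.0946), the Wilcoxon test (0.117), the replicate block (0.149) and without any 1 of 12 of the 19 mice. The summed signal of the monocyte and neutrophil list was 431 to 751 in mutants and 310 to 538 in controls. Without *Plac8* it was 222 to 311 in mutants and 185 to 256 in controls. The summed signal of the T and NK cell list was 299 to 513 in mutants and 307 to 439 in controls. Such sums are set mostly by the brightest probe sets and do not give shares of RNA or of cells. Of 10 sinusoidal endothelial markers 1, *Clec4g*, rose (0.67, SE 0.11, adjusted p = 8.71e-05). Of 9 stellate cell markers *Reln* was lower (-0.44, SE 0.12, adjusted p = 0.0196), and of 7 cholangiocyte markers *Sox9* was lower (-0.77, SE 0.19, adjusted p = 0.00790). Of 7 B cell markers 0 passed the limma test and 1 had an unadjusted p under 0.05. The part of these cells in the changes of the interferon-stimulated genes was not tested.

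The genes whose values varied most like the set were sought within genotype, after the mean of each group had been removed from every gene. Over 19 arrays, *Ifit3b* had the highest Pearson correlation with the mean of the 36 members detected on at least 10 arrays (r = 0.86), followed by *Tirap* and *Gfra2* (each 0.77), *Prr13*, *Irgm2*, *Cox6a1* and *Adra1b* (each 0.75), *Ly6e* (0.74), *Tnip1* (0.73) and *Irgm1* (0.72). Of these 10 genes 4 are on another interferon list, and the same 4 were the ones called higher. *Prr13* was called lower (-0.48, SE 0.16, limma adjusted p = 0.0489), a call lost without any 1 of 12 of the 19 mice. The rest did not pass the test, namely *Tirap* (-0.38), *Adra1b* (-0.18), *Cox6a1* (-0.17), *Tnip1* (-0.07) and *Gfra2* (0.02). Those of the 10 genes that lie outside the interferon lists were thus not called higher. Whether likeness within genotype goes with a rise between genotypes was not tested over all genes. The 10 correlations are the highest over all other genes on shared arrays and are given as a description.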

How the data were processed

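Per the study's methods, the authors hybridised amplified liver RNA of 19 mice to Mouse Clariom S arrays, and Transcriptome Analysis Console gave SST-RMA gene-level values. The deposited values are log2 signals per probe set, already background-corrected and normalized between arrays, with a deposited p-value of detection above background per array (detected: under 0.05). The genome build of the array annotation is not given in the sources used here. Of 22206 probe sets, 19572 named 1 gene in the platform annotation and 2634 unnamed ones were not used. The brightest probe set stood for each of 55 genes with several, none of them a member.

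The comparison was a limma fit (version 3.58.1, R 4.3.3) of 10 mutant against 9 control arrays over all 19505 genes with no filter, Benjamini-Hochberg adjusted over all genes (threshold 0.05). The fit was tested on simulated data. The members and all gene lists were chosen with earlier results of these data known. Named were all members, *Mmut*, ligands, receptors, regulatory factors, up to 4 genes per other list by smallest adjusted p, and the 10 most correlated genes. *Socs1*, *Mavs*, *Sting1*, *Samhd1* and *Rnaseh2a*, outside this rule, were named after their values were seen. SD and n are over mice. The number of arrays limits the precision. Alternatives were other tests, normalizations, filters, array weights, a replicate block and leaving out each array.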

Additional observations from a re-analysis of the deposited data

Results flagged for a closer look

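In 76 groups of values (37 members and *Mmut*, in mutants and in controls), 3 held a mouse whose gap to the nearest other value of its group was large for the range of the group. Chance flags about 1 in 20 such groups. *Phf11d* was 5.72 in mutant replicate 5, against 6.57 in the next lowest mutant. *Ifi35* was 9.53 in mutant replicate 6, against 9.20 in the next highest mutant. *Usp18* was 8.86 in control replicate 8, against 7.81 in the next highest control. Control replicate 8 was also among the 3 highest controls for 32 of the 37 members.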

How the results depend on the processing

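Over 29 alternatives, the 6 counts of calls stayed within 1.5 times their value, and the members' median change was 1.18 to 1.32 with 1 array left out and 1.20 to 1.27 otherwise. The members called stayed at 35 with any array left out and were 33 to 35 otherwise, the lowest with the Wilcoxon test, under which *Mx1* and *Phf11d* were lost. Of 1072 member values, 1065 kept direction and side of the threshold. *Isg20* turned to -0.00101 with median centring and ranged from -0.0439 to 0.113 with 1 array left out, and *Oas3* from -0.0205 to 0.150; the cause was not tested. Same-numbered arrays did not deviate together (r -0.088 to 0.054 over 9 pairs, 0 controls closest to their own number). The values gave no sign that the numbers pair the mice, but paired mice need not deviate together, so pairing is not excluded. With the replicate block, which leaves out mutant replicate 10, 35 members and 1488 of all genes were called, against 1962, and the *Ifnar1* call was lost (adjusted p = 0.0786), as it was with quantile normalization (0.0501). With 1 of the 19 arrays left out in turn, the call was lost in 14 fits for *Asgr1*, 12 each for *Cd4* and *Prr13*, 9 for *Cd5l*, 5 for *Ifnar1*, 4 for *Adgre1*, 2 for *Ly6e* and 0 for *Clec4f* and *Reln*. In the other 10 alternatives it was lost in 4 for *Prr13*, 3 each for *Cd4* and *Ly6e*, 2 each for *Asgr1*, *Cd5l*, *Ifnar1*, *Adgre1* and *Clec4f*, and 1 for *Reln* (the replicate block). Genes near background, such as *Oas3* and most ligands, limit what could be measured.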
